A study of Drosophila melanogaster and Drosophila virilis with 60 samples.

Results

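A set of 100 genes of *D. virilis*, of 13685 listed, was examined for a pulse of expression at the prepupal stages P2 and P3. The study followed whole animals of *D. virilis* (wild-type strain 9) and of *D. melanogaster* (wild-type Oregon-R) through 10 stages with 3 libraries each, and the 30 libraries of *D. virilis* were used here. They comprise embryos aged 15 h, larvae of the 2nd instar, the pupal stages P1, P2, P3, P4 and P5, pupae aged 36 h and 72 h, and adult males (imago) aged 5 d. Each library came from pooled wild-type animals without any treatment. The *D. melanogaster* libraries, used for 1 comparison at the end, comprise embryos aged 10 h, larvae (1 library each of instars 1, 2 and 3, which are not replicates of one instar), P1 to P5, pupae aged 24 h and 48 h, and males aged 5 d. The sexes were not distinguished before the imago, and pupae were staged one by one. Replicates were averaged within a stage, without replicate 3 of P3 and of P4. A gene was scored by the lower of its P2 and P3 means minus the highest mean among embryo, larvae, P4, P5, 36 h pupae, 72 h pupae and imago, and the 100 highest scores were taken. P1 played no part in the choice. Since the levels at the 9 other stages chose the genes, the pulse itself is described below and was not tested.

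At puparium formation the larval cuticle hardens into a case within which the adult is built. P1 is the white puparium, P2 the brown puparium, P3 the stage at which a gas bubble appears in the abdomen and P4 the stage at which the prepupa becomes buoyant. In *D. melanogaster*, a pulse of the steroid hormone ecdysone at the end of larval life triggers puparium formation, and a later pulse ends the prepupal period, in which larval organs begin to break down and imaginal discs evert. Genes that switch on between these pulses and off again are a known feature of the *D. melanogaster* prepupa. The files and the annotation used here do not pair the identifiers of *D. virilis* with names. The genes are therefore called by the rank of their score, 4 identifiers are printed, and no role is given to any of them. For the same reason the label of whole bodies could not be checked against marker genes of tissues.

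Values are on a log2 scale after the variance stabilizing transformation, on which a count of 0 has the value 3.09 and differences between low values are compressed. Normalized counts were obtained by inverting the transformation. The total count per library lay between 2108242 and 11339330, and was lowest in replicate 2 of the imago. Most of these totals exceed the number of reads per sample that the paper states, and the reason was not examined. Replicate 3 of P3 and of P4 stood apart from the other replicates of their stages and are given separately. In whole bodies, fewer cells of a type and less RNA per cell cannot be told apart. The replicates of *D. virilis* were independent collections of pooled animals.

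The gene of rank 1, LOC6631781, was nearly silent outside the pulse. Its normalized count was 25094, 20703 and 24568 in the 3 P2 libraries, and 18835 and 9031 in replicates 1 and 2 of P3. In P1 it was 10.4, 2.73 and 10.4, and in replicates 1 and 2 of P4 it was 8.21 and 21.1. The P2 and P3 libraries thus lay far above all others, and the change was complete within 1 stage on both sides. In the 3 libraries of 36 h pupae its count was 0. In the embryo, larvae, 72 h pupae and imago, no library exceeded a normalized count of 3.22.

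The score of rank 1 was 8.86 log2 units. It was 6.16 for rank 2, 5.28 for rank 3, 5.14 for rank 4, 4.50 for rank 5 and 4.45 for rank 6. Ranks 7 to 15 had scores from 3.75 down to 2.37. A score of at least 3 was reached by 9 genes, one of at least 2 by 24 and one of at least 1 by 78, with a median of 1.43, which is a 2.69-fold difference on this scale. Ranks 98 to 100 had scores of 0.85, 0.83 and 0.83, and the next 3 genes outside had 0.81, 0.81 and 0.80. The limit at 100 genes therefore divides a continuum. In all, 621 genes (4.54% of those listed) had a score above 0.

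At the level of libraries, the 5 P2 and P3 libraries all exceeded the 20 libraries of the 7 other stages in 96 of the 100 genes, against 2.07% of all genes, a share that the choice of the genes itself raises. The stage nearest to the pulse in level was P4 for 45 genes, the larvae for 19, P5 for 15, the imago for 10, 36 h pupae for 6 and 72 h pupae for 5. The embryo was the nearest stage for 0 genes. The median level of the 100 genes was 4.08 in the embryo, where the median of all genes was 6.33, and 11 of the 100 had no count in any embryo library.

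**Figure D1:**
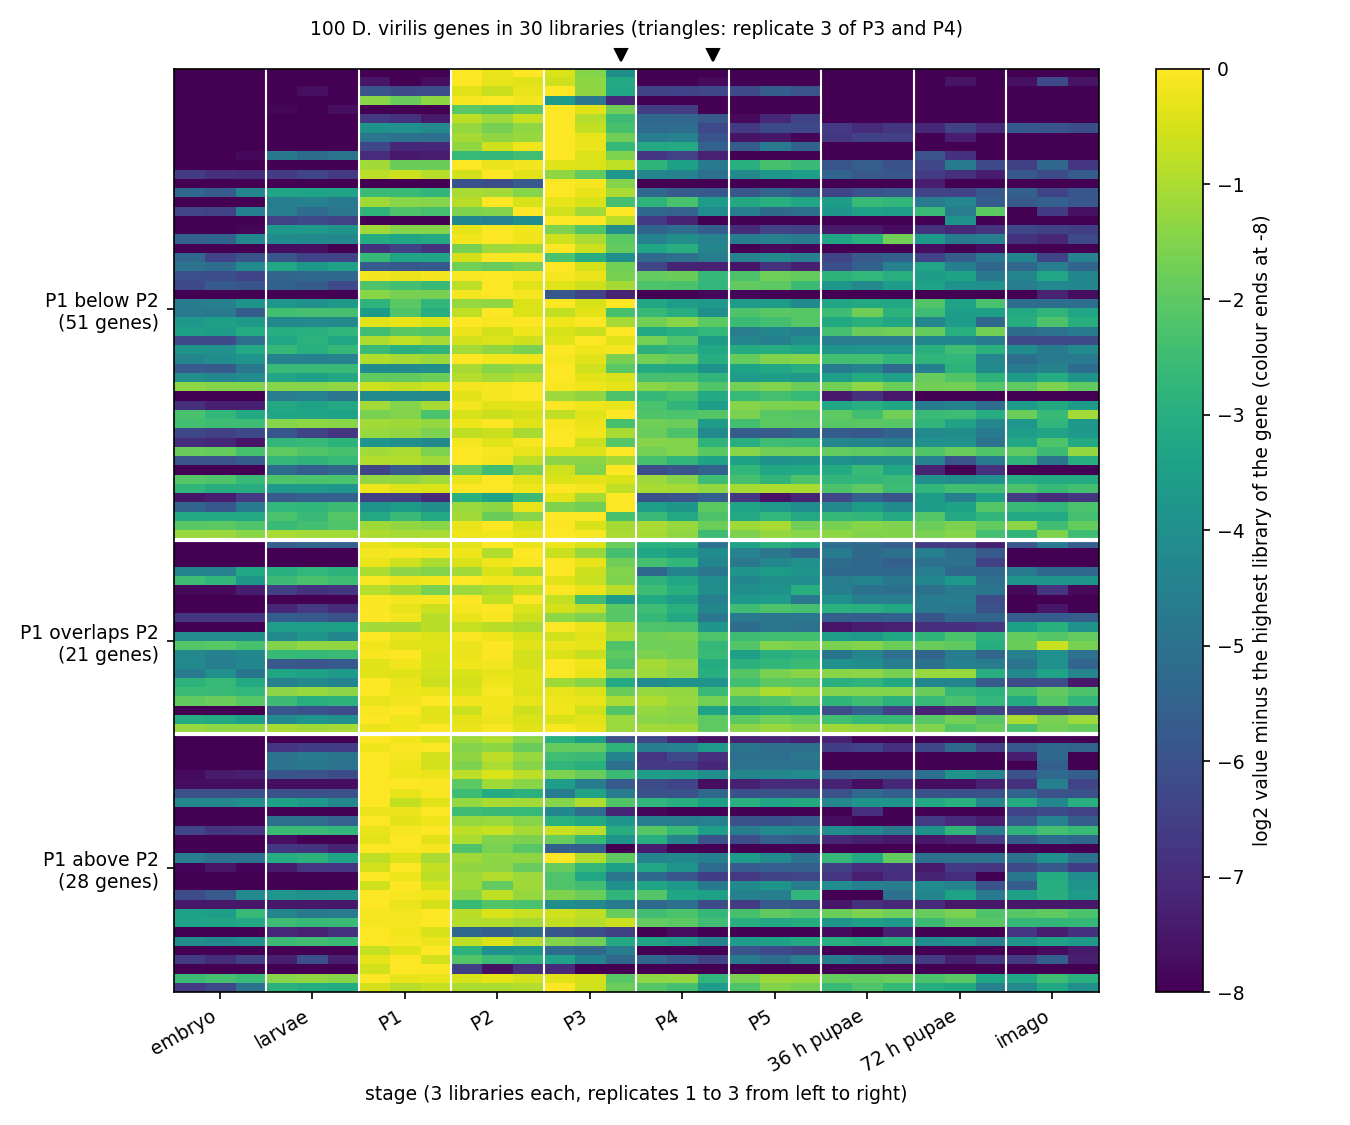
Level of the 100 genes (rows, grouped by their P1 libraries and ordered by rank within a group) in the 30 *D. virilis* libraries (columns), as log2 value minus the highest library of the gene, with the colour scale ending at -8. P2 and P3 are bright in all groups, P1 is bright in the lower groups, and the libraries under the triangles, replicate 3 of P3 and of P4, are dimmer than their neighbours.

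The pulse took up a large share of the transcriptome. The 100 genes held 10.0% ± 0.149 (SD, n = 3) of the counts of a library at P2, against 0.538% ± 0.0215 (SD, n = 3) in the larvae and 0.542% ± 0.00613 (SD, n = 3) in the embryo. The individual P2 libraries had 10.0%, 10.2% and 9.88%. At P3 the share was 8.14% and 6.81% in replicates 1 and 2, and at P4 it was 1.07% and 0.986%. At P5 it was 1.02% ± 0.0259, and 36 h pupae had 0.879% ± 0.0480, 72 h pupae 0.474% ± 0.116 and imagoes 0.442% ± 0.136 (SD, n = 3 each). The share at P2 was 18.6-fold that of the larvae, and the share at P3 was 7.28-fold that at P4. The 95% Wilson intervals of single libraries, which cover counting error only, were at most 0.045 percentage points wide.

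A few genes carried most of this share, and they changed between the stages. At P2, 50% of the counts of the set came from 6 genes, and rank 4 alone (LOC6623513) held 1.59% ± 0.060 (SD, n = 3) of a library. At P3, 50% again came from 6 genes, and the largest contribution was that of rank 15, with 0.825% ± 0.12 (SD, n = 2). At P1, 4 genes sufficed, and rank 8 led with 1.72% ± 0.19 (SD, n = 3). In the larvae rank 65 led with 0.219% ± 0.0057 (SD, n = 3), and 50% of the counts of the set came from 3 genes. The mean normalized count over the P2 and P3 libraries ranged from 32.0 to 86470 among the 100 genes, with a median of 1567, against 89.2 for all genes. These counts are not divided by gene length, so that they do not rank the genes by number of transcripts.

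**Figure D2:**
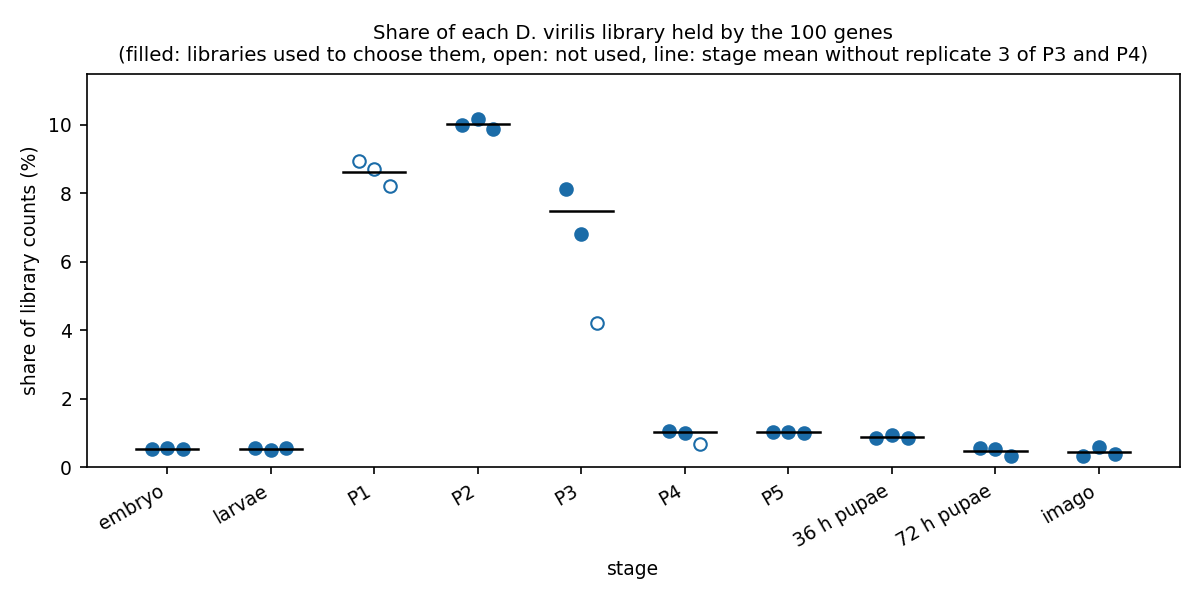
Share of the counts of each *D. virilis* library (y axis, %) held by the 100 genes at each stage (x axis), with filled points for libraries used to choose the genes, open points for P1 and for replicate 3 of P3 and P4, and lines for stage means without these replicates. The share rises from 0.538% in the larvae to 8.62% at P1 and 10.0% at P2, and falls to 7.47% at P3 and 1.03% at P4.

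The P1 libraries were not used by the choice, and most of the set was already high in them. In 86 of the 100 genes, all 3 P1 libraries lay above all 3 larval libraries, which was so for 40.5% of all genes. In 10 genes all P1 libraries lay below the larval ones (32.1% of all genes). Because the genes were required to be low in larvae, the first of these counts is a description only. No *D. virilis* larvae later than the 2nd instar were sampled. A change between larvae and P1 therefore cannot be placed at puparium formation. The median increase from larvae to P1 was 3.07 log2 units, against 0.14 over all genes, and the share of the set in library counts was 8.94%, 8.71% and 8.21% in the 3 P1 libraries.

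By their P1 libraries the genes fell into 3 groups. In 51 genes all P1 libraries lay below all P2 libraries (12.1% of all genes), and in 28 they lay above them (16.1% of all genes). In the other 21 the libraries overlapped. The choice favoured genes with high P2 values, a selection that the shares over all genes lack, so that these counts are a description. The genes with P1 below P2 rose from a median of 6.49 in the larvae to 8.12 at P1, 11.15 at P2 and 11.11 at P3, and stood at 7.60 at P4. Those with P1 above P2 had their median maximum at P1, with 11.61, followed by 10.25 at P2, 9.69 at P3 and 7.38 at P4. The overlapping genes stayed between 10.49 and 10.77 from P1 to P3, and kept a level of 9.58 at P4. Taking all 10 stages together, the highest mean was at P1 in 36 genes, at P2 in 31 and at P3 in 33. A total of 75 genes had a higher mean at P1 than at any stage other than P2 and P3. The choice keeps those other stages below P2 and P3. Shares over all genes were not computed for the highest stage or for this total, which are a description.

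The groups also differed in their share of the library. The genes with P1 above P2 accounted for 5.13% ± 0.27 of the counts at P1, 2.32% ± 0.25 at P2 (SD, n = 3 each) and 0.677% ± 0.15 at P3 (SD, n = 2). The genes with P1 below P2 accounted for 1.76% ± 0.11 at P1, 5.75% ± 0.044 at P2 (SD, n = 3 each) and 5.39% ± 0.64 at P3 (SD, n = 2). These groups were set by the P1 and P2 libraries, so that the opposite order of their shares at P1 and P2 restates the grouping.

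**Figure D3:**
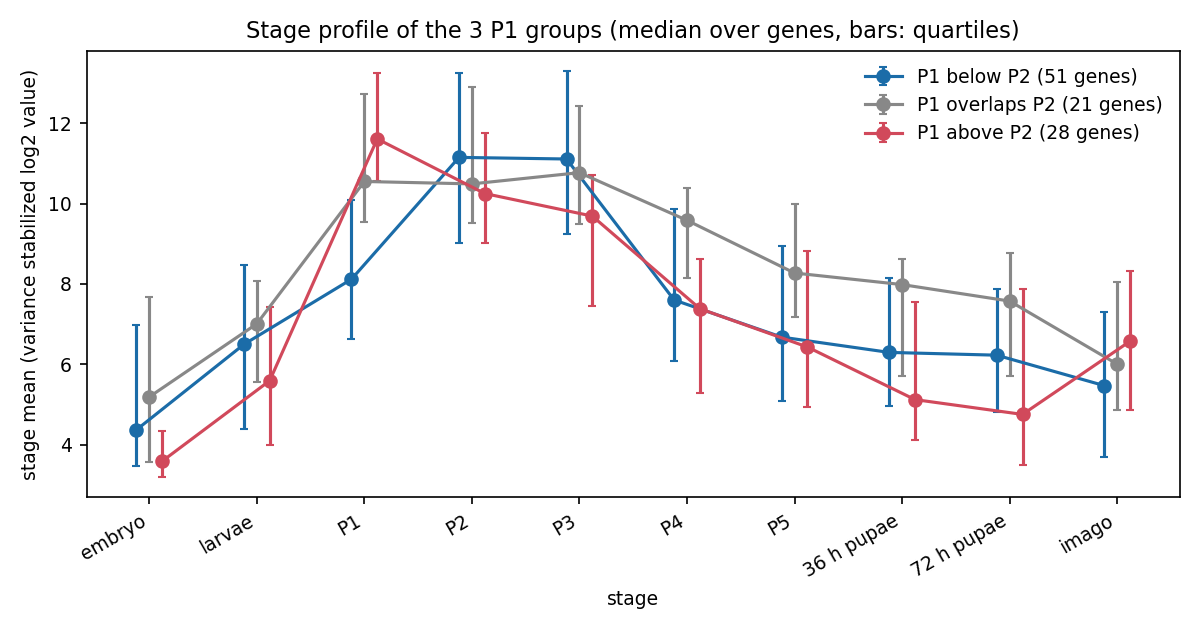
Stage means (y axis, variance stabilized log2 value) of the 3 groups set by the P1 libraries, as median and quartiles over genes at each stage (x axis). The group with P1 above P2 peaks at P1 with a median of 11.61, and the group with P1 below P2 is highest at P2 and P3, with 11.15 and 11.11.

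The extremes of the first group were ranks 93, 79 and 86, in which P1 exceeded P2 by 6.79, 5.13 and 3.15 log2 units. In rank 93 the P1 libraries had 14.16, 14.72 and 14.66, the P2 libraries 8.22, 7.09 and 7.86, and the larval libraries 6.11, 5.99 and 6.12. Such a gene is foremost a P1 gene, with P2 and P3 on its declining side. It entered the set because P1 was disregarded. When P1 was counted among the stages outside the pulse, 45 of the 100 genes were still among the top 100.

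Rank 8 had the largest share at P1. Its values were 17.45, 17.28 and 16.98 at P1, 16.24, 16.53 and 16.02 at P2, and 14.53 and 14.00 in replicates 1 and 2 of P3. The larval libraries had 4.21, 4.07 and 3.81, and no larval library overlapped with P1. Between the 2nd instar larvae and P1 this gene therefore went from a few counts to the largest contribution within the set. When within this interval it rose is not known. Its imago libraries were widely spread, at 3.71, 9.48 and 6.38, with the highest value in the library of lowest depth.

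In 10 genes (ranks 5, 15, 19, 24, 34, 56, 69, 75, 82 and 88) the P1 libraries dipped below those of the 2nd instar larvae. Levels in later larvae are not known. The dip was between 0.67 (rank 75) and 3.22 (rank 24) log2 units. In rank 15 the larval libraries had 11.84, 11.46 and 11.69, the P1 libraries 9.65, 9.17 and 9.23, and the P2 libraries 13.97, 13.95 and 14.18. It then reached 16.62 and 16.20 in replicates 1 and 2 of P3, fell to 9.88 and 10.16 in those of P4, and had no counts in the imago. In 4 of these 10 genes (ranks 19, 24, 82 and 88) all libraries of 72 h pupae lay above all those of 36 h pupae, which was so for 25.7% of all genes. In rank 19 they had 8.03, 7.07 and 6.08, against 3.57, 3.95 and 4.02.

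The difference between P3 and P2 is given as a description, because the libraries of both stages entered the score that chose the genes. The same holds for P4, P5, embryo and imago below. Counts of genes past the limma threshold are therefore given beside those of all genes without p-values for single members. In limma with Benjamini-Hochberg adjustment over 13634 genes and a threshold of 0.05, 15 of the 100 genes were higher at P3 (6.48% of all genes were) and 18 were lower (4.97% of all genes). The remaining 67 did not pass the threshold. By libraries, the P3 values lay above all P2 values in 23 genes (22.0% of all genes) and below them in 38 (19.6% of all genes). The median difference was −0.10 log2 units over the set and −0.03 over all genes. After quantile normalization 8 genes were higher (5.15% of all genes) and 19 lower (4.11% of all genes). These counts rest on 2 P3 libraries. Leaving out replicate 1 or 2 keeps 1 P3 library. Without replicate 1 the median difference was −0.20 (0.03 over all genes), and without replicate 2 it was −0.02 (−0.05 over all genes). With all 30 libraries, 8 genes were higher (5.57% of all genes) and 25 lower (4.75% of all genes).

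The gene with the largest increase was rank 19, LOC6622377. Its P2 libraries had 9.40, 9.29 and 9.62, and replicates 1 and 2 of P3 had 15.39 and 15.27, without overlap. The difference was 5.90 ± 0.390 log2 units (SE). Rank 24 followed with 4.24 ± 0.737 (SE) and rank 15 with 2.38 ± 0.542 (SE). The limma threshold was no longer passed without replicate 1 in rank 24 (4.21), and without replicate 1 (2.13) or replicate 2 (2.54) in rank 15. All 3 genes were among those that dipped at P1, and the same holds for ranks 5, 34 and 82 among the 15 genes higher at P3. How many of all genes had both a dip and a rise was not determined, and the relation was not tested.

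The gene with the largest decrease was rank 41, LOC6623447. Its P1 libraries had 9.93, 9.71 and 9.70, its P2 libraries 11.24, 11.35 and 11.24, and replicates 1 and 2 of P3 had 5.56 and 4.95. It had no counts in the embryo, the larvae and replicates 1 and 2 of P4. P3 was thus lower than P2 by a wide margin and still above the silent stages. The difference was −6.02 ± 0.230 log2 units (SE).

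Rank 4 and rank 55 had the next largest decreases. In rank 4 the P1 libraries had 15.74, 15.32 and 15.80, the P2 libraries 17.04, 17.16 and 17.03, and replicates 1 and 2 of P3 had 13.56 and 12.34. The difference was −4.13 ± 0.405 (SE), and it was −3.60 ± 0.270 in rank 55 (SE). In rank 1 the difference was −0.84 ± 0.343 (SE), which did not pass the limma threshold.

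Of the 28 genes with P1 above P2, 0 were higher (6.48% of all genes) and 11 lower (4.97% of all genes) at P3 than at P2 by the limma threshold, with a median difference of −0.91. At an unadjusted p under 0.05, 1 of the 28 was higher, and no other tool was run. Of the 51 genes with P1 below P2, 14 were higher and 6 lower, with a median near 0 (−0.0035). Both the grouping and this difference use the P2 libraries, so that the relation between them was not tested.

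From P3 to P4, replicates 1 and 2 of both stages did not overlap in any of the 100 genes, and P4 was the lower stage in each, as it was in 26.6% of all genes, with 36.8% of all genes higher at P4. The level fell by 2.14 log2 units at the median, while the median change of all genes was 0.09. The choice requires a fall, which was at least 0.85 log2 units in each gene, while replicates 1 and 2 of P3 differed by 0.254 at the median. It thereby made the separation of the libraries likely, a selection that the shares over all genes lack. From P4 to P5, all libraries were lower in 55 of the 100 genes (27.2% of all genes) and higher in 15 (20.1% of all genes). In limma, 33 of the 100 genes were lower at P5 than at P4 (10.5% of all genes) and 7 were higher (4.94% of all genes), with a median difference of −0.52 against −0.05 over all genes. Without replicate 1, which leaves 1 library at P4, the median difference was −0.42 (−0.08 over all genes). Without replicate 2, which also leaves 1, it was −0.61 (−0.03 over all genes).

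Rank 31 showed the steepest fall between these stages. Its values were 12.02 and 11.42 in replicates 1 and 2 of P3, 8.76 and 9.06 in those of P4, and 3.79, 4.21 and 4.15 at P5. The difference between P5 and P4 was −4.86 ± 0.245 (SE). It was −3.58 ± 0.542 in rank 15 (SE) and −3.56 ± 0.237 in rank 66 (SE). In rank 31 the P4 values lay between those of P3 and those of the larvae (4.31, 4.34 and 3.97). In rank 15 they already lay below the larval values, and P5 was lower still.

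The 7 genes that were higher at P5 than at P4 were ranks 14, 22, 25, 61, 75, 86 and 89. The largest difference was that of rank 86, with 6.43 and 6.57 in replicates 1 and 2 of P4 and 10.17, 9.91 and 9.69 at P5 (3.42 ± 0.458, SE). Rank 75 differed by 2.97 ± 0.363 (SE) and rank 89 by 1.85 ± 0.359 (SE). In rank 89 the limma threshold was no longer passed without replicate 1 (1.86) or replicate 2 (1.89). Expression in rank 86 was back at 4.68, 6.94 and 4.38 in 36 h pupae.

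Between P5 and 36 h pupae, 56 of the 100 genes had all libraries of the later stage below those of the earlier (20.1% of all genes) and 12 had them above (27.3% of all genes). From 36 h to 72 h pupae, 31 genes were lower (14.8% of all genes) and 17 higher (25.7% of all genes). From 72 h pupae to the imago 28 were lower (14.8% of all genes) and 26 higher (31.0% of all genes). Before the pulse, 62 genes had all larval libraries above those of the embryo (37.1% of all genes) and 9 had them below (31.4% of all genes).

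**Figure D4:**
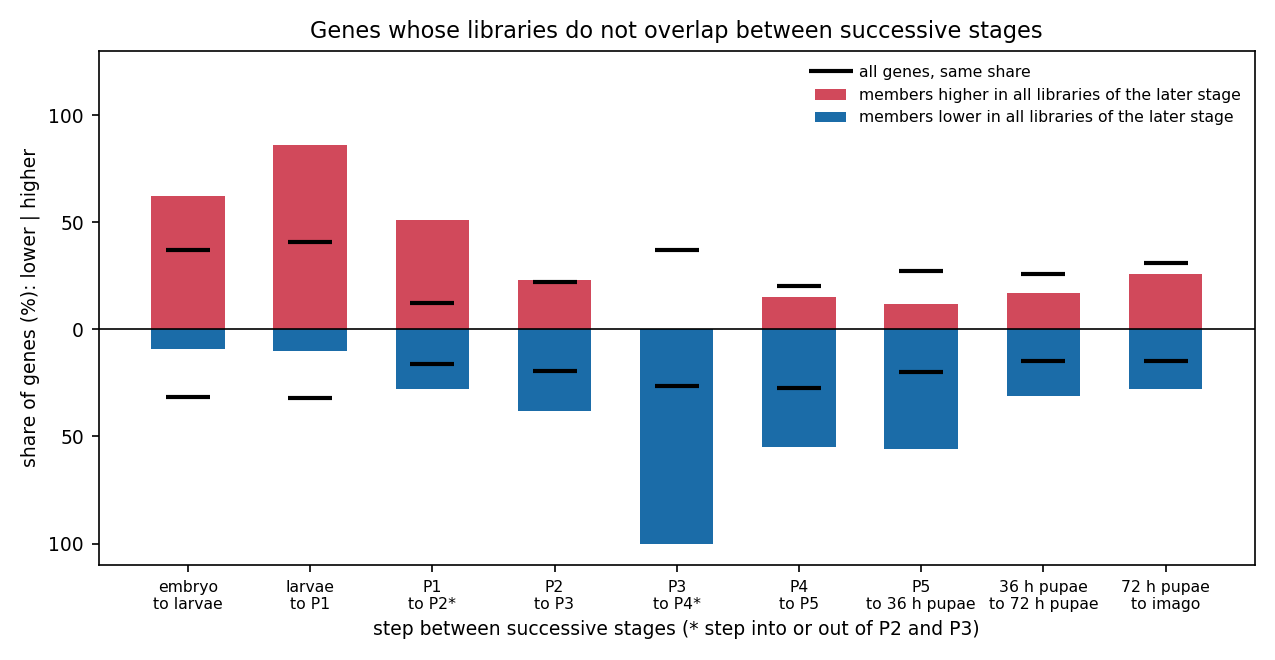
Share of genes (y axis, %, higher above and lower below 0) whose libraries do not overlap between successive stages (x axis), as bars for the 100 genes and black marks for all genes, without replicate 3 of P3 and P4. Steps with an asterisk lead into or out of P2 and P3. The largest rising bar is the step from larvae of the 2nd instar to P1 (86 genes). P4 lies below P3 without overlap in all 100 genes, where the choice requires a lower mean.

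The ends of the life cycle were set side by side as well. In limma, 53 of the 100 genes were higher in the imago than in the embryo (48.2% of all genes) and 17 were lower (27.3% of all genes). The direction depended on the scaling. The median difference was 0.68 for the set and 0.47 for all genes with the deposited values, and −0.36 and −0.55 after quantile normalization. There, 23 genes were higher (31.5% of all genes) and 41 lower (49.3% of all genes). The medians of the set and of all genes therefore moved together with the scaling.

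Single genes stood out more clearly. Rank 64 had 3.60, 3.09 and 3.40 in the embryo and 12.41, 14.11 and 13.10 in the imago, a difference of 9.84 ± 0.377 (SE). It was followed by rank 52 with a difference of 6.02 ± 0.176 and rank 21 with 5.42 ± 0.285 (SE). Rank 52 had no counts in the embryo and rank 15 none in the imago, so that their differences are bound to the value of a count of 0 on this scale. The imago mean of rank 64 was the highest outside P1 to P3, and the P1 libraries of this gene had 17.19, 16.99 and 16.40. In the opposite direction, the difference was −4.28 ± 0.485 in rank 15 (SE) and −3.70 ± 0.321 in rank 89 (SE). Rank 23 followed with −1.86 ± 0.560 (SE), which no longer passed the limma threshold without replicate 1 (−1.65) or replicate 3 (−1.24). Rank 89 was among the genes expressed throughout, with a mean of 12.14 in the embryo and 14.63 at P2.

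The third replicates of P3 and P4 were not used to choose the genes. In 99 of the 100 genes the P3 library had a higher value than the P4 library, against 37.8% of all genes. The difference was at least 1 log2 unit in 73 genes (6.25% of all genes), with a median of 1.82 over the set and −0.14 over all genes. It ranged from −0.09 (rank 90) to 7.65. No test was made of this difference, which compares 1 library with 1 library. Outside the set, 916 genes were higher at P3 than at P4 in replicates 1 and 2 by at least 0.85 log2 units, the lowest difference of a member. Of these, 91.2% were higher in the third P3 library than in the third P4 library, and 58.3% by at least 1 log2 unit. They were not matched to the set in size, where the median change from P3 to P4 was −2.14 in replicates 1 and 2.

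Both libraries had lower levels of the set than the other replicates of their stages. The choice favoured genes with high P3 values in replicates 1 and 2, which tends to place replicate 3 of P3 lower. It also favoured low P4 values, which tends to place replicate 3 of P4 higher. The shares over all genes lack this selection, so that the shares below are a description. In replicate 3 of P3, 86 of the 100 genes lay below replicates 1 and 2 (37.8% of all genes did), and the median difference from their mean was −1.35, against 0.08 over all genes. In replicate 3 of P4, 81 genes lay below the other replicates (39.4% of all genes), with a median difference of −0.76 against 0.06. The set held 4.23% of the counts of the P3 library and 0.678% of those of the P4 library. The mean absolute distance of the 100 values in replicate 3 of P3 was smallest to the P3 mean (1.31) and next smallest to the P4 mean (1.64). For replicate 3 of P4 it was 0.836 to the P5 mean and 0.924 to the P4 mean. Replicates 1 and 2 of P3 differed in the same way to a lesser degree, with 90 of the 100 genes higher in replicate 1 (42.9% of all genes) by 0.25 at the median.

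**Figure D5:**
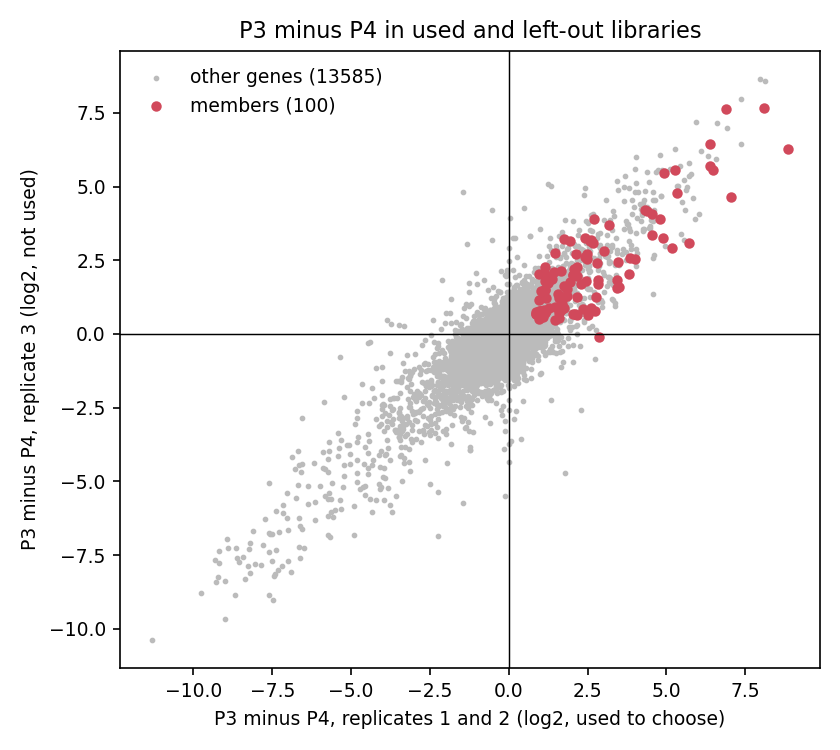
Difference between P3 and P4 in replicates 1 and 2 (x axis, log2, used to choose the genes) and in replicate 3 (y axis, log2, not used), with the 100 genes in red and the other genes in grey. All red points but that of rank 90 lie above 0 on the y axis, where the median of the set is 1.82.

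Some members had consecutive identifiers. The identifiers carry serial numbers, and 18 of the 100 genes had another member with the next lower or higher number, in 6 pairs and 2 runs of 3. Of the 171 listed genes whose number is next to that of a member, counted once for each member, 20 (11.7%) were members themselves, whereas the set makes up 0.731% of all genes. The positions of the genes in the genome were not analysed here, and adjacent numbers are not taken as adjacent genes. Genes of near-identical sequence may share reads under pseudomapping, so that the values within a run may not be independent.

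Profiles within a run were alike in some runs and not in others. Ranks 1 and 2 formed a pair and had means of 4.38 and 5.93 at P1, 14.51 and 13.49 at P2, 13.67 and 12.73 at P3, and 4.81 and 5.66 at P4. Ranks 14 and 22 were a pair with P1 above P2, with means of 13.00 and 14.17 at P1, 12.09 and 13.10 at P2, and 10.74 and 11.60 at P3, and both rose again from P4 to P5. Ranks 39 and 42 both declined in mean from P1 to P3 at different levels, with 9.00 and 13.58 at P1, 6.30 and 11.15 at P2, and 5.12 and 9.02 at P3. The 3 genes of ranks 57, 62 and 87 all had P1 above P2, but from P2 to P3 the mean of rank 57 went from 6.79 to 7.60 and that of rank 87 from 7.89 to 6.51. Ranks 7 and 60, both with P1 below P2, differed in direction from P2 to P3, with 11.32 and 12.37 in rank 7 and 11.34 and 10.24 in rank 60. In 6 of the 8 runs all genes belonged to the same of the 3 groups set by P1. How often members outside a run share a group was not computed, so that this count is a description. The 151 genes outside the set that were next to a member had a score above 0 in 4.64% of cases, against 3.84% of all genes outside the set.

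The same choice applied to *D. melanogaster*, with pupae aged 24 h and 48 h and without the larval library labelled 2nd instar, found 55 of 14127 genes with a score of at least 1, against 78 of 13685 in *D. virilis*. The authors transformed the 2 species separately, and their genes were not matched here, so that the overlap of the sets is not known. When all 8 other stages including P1 had to lie at least 1 log2 unit lower, 27 genes of *D. virilis* peaked at P2 and P3. For the neighbouring pairs of stages the count was 68 for P1 and P2 and 44 for P3 and P4.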

How the data were processed

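The 30 libraries of each species hold poly(A)-selected RNA from whole animals. After read filtering in fastp, the authors ran Kallisto against the DvirRS2 transcriptome for *D. virilis*, summed the estimates of each gene and deposited variance stabilized log2 values made with DESeq2. Normalized counts were computed from the deposited values as the exact inverse of this transformation. With the smallest step taken as 1 count, 100% of recovered counts up to 50 were whole within 0.02 in every library. The fits used 28 libraries and the 13634 genes whose values varied, in 1 limma model of all stages (lmFit, eBayes with trend, limma 3.58.1, R 4.3.3), without a filter on low values, and were tested on simulated data. Since the stages compared also chose the members, calls among members are descriptive. The fit replaces the count test of the study, since values are not counts. The members and lists were chosen with earlier results of these data known. Genes were named by a rule: the 15 highest scores, those around rank 100, the 3 largest differences in each direction, the 3 highest at P1, and consecutive identifiers. The lists of markers and hormone response genes, and the comparison with *D. melanogaster* orthologs, gave no value because no *D. virilis* names or orthologs were at hand. Alternatives covered libraries, replicate block, trend, filter, normalization, scale and each replicate left out.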

Additional observations from a re-analysis of the deposited data

How the results depend on the processing

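Of the 100 genes, 45 stayed among the top 100 when P1 counted as a stage outside the pulse, and 83 to 95 when libraries, scale, averaging or normalization were changed, including 85 with all 30 libraries. A score of at least 1 would keep 78. Genes higher at P3 than at P2 numbered 15, 8 with all 30 libraries, 8 after quantile normalization and 3 to 12 when 1 replicate number was left out, where those lower numbered 11 to 17 instead of 18. Without 1 replicate number, genes higher at P5 than at P4 were 2 to 7 and those lower 15 to 33. Where this leaves P3 or P4 with 1 library, that library is assumed to vary like the other stages. In each of these fits the share of all genes past the threshold was also below that with 28 libraries. A lower count alone therefore does not set the 100 genes apart. Without replicate 3, 12 were higher (6.10% of all genes) and 17 lower (4.06%) at P3 than at P2. At P5, 7 were then higher (4.79%) and 33 lower (10.4%) than at P4. Genes higher in the imago than in the embryo fell from 53 (48.2% of all genes) to 23 (31.5%) after quantile normalization. Those lower rose from 17 (27.3%) to 41 (49.3%). The cause was not tested. With 1 replicate number left out, 9 to 16 genes were lower (22.1% to 26.4% of all genes). A filter on low values left 82 of the 100 genes. With the replicate number as a block, 14 genes were higher (6.20% of all genes) and 20 lower (4.44%) at P3. At P5, 7 were higher (5.31%) and 33 lower (10.6%), and in the imago 53 were higher (48.3%) and 17 lower (27.5%). In the compared stages, replicates of the same number did not deviate together (correlations from −0.21 to 0.16). Replicate 3 of P3 and of P4 did not enter these correlations. They therefore cannot show whether libraries of the same number share a batch. Among named genes, the values that no longer passed the threshold came from fits with 1 replicate number left out and are given above. These genes were named for the largest differences past that threshold. The calls that they kept are therefore not a measure of robustness. Alternatives for P1 and for the left-out libraries were chosen after seeing the data. The comparison with orthologs was not run. In the imago, replicate 2 with 2108242 counts limits the precision of low genes.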
